A study of Mus musculus with 31 samples.

Results

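The lysosomal cathepsins are proteases that degrade proteins in the acidic compartments of the cell, and legumain is the asparaginyl endopeptidase that works beside them and cleaves several of them to their mature forms. The 10 genes described here were chosen by name, Ctsa, Ctsb, Ctsc, Ctsd, Ctsh, Ctsk, Ctsl, Ctss, Ctsz and Lgmn, out of 22609 genes listed in the count files. All 10 had enough reads to be tested in each of the 12 comparisons made.

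The libraries are poly(A) RNA-seq of masseter muscle (MM), the main jaw-closing muscle, from 31 male C57BL/6J mice with 1 library per mouse and 3 to 4 mice per group. Mice received an injection into MM of complete Freund's adjuvant (CFA), an oil emulsion with killed mycobacteria that causes inflammation, collagenase type 2 (Col) at 0.2U or at 10U, an enzyme that breaks down the collagen matrix and damages the tissue, or vehicle (PBS). In the CFA experiment MM was taken after 1d (n = 3) or 5d (n = 3), with a vehicle group of 3. The Col experiment has 3 vehicle-treated mice, 4 mice in each of the 0.2U groups labelled 1C and RPC, and 4, 3 and 4 mice in an early, a 6d and a late group post-Col (10U). The labels give 2d for the early and 12d for the late group, but another source gives other days for both, so they are called early and late here. The labels do not give the day of the 1C and RPC groups, nor that of the vehicle-treated mice. All mice were adult and wild type, the labels name both vehicle groups only as controls, and the whole dissected muscle was used. The CFA and the Col groups were each compared with the vehicle group taken as the control of their agent. The labels do not state whether the 10U groups were handled together with the Col vehicle and 0.2U groups. In whole tissue, a lower share of cells of a type and less RNA per cell cannot be told apart.

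Levels per mouse are given as CPM, the counts of a gene relative to all counts of its library, with library sizes scaled by the TMM method over all 31 libraries. Levels of different genes are compared only as RPKM, which divides by exon length and library size. Fold changes come from edgeR's quasi-likelihood test of the counts, and a gene is called higher or lower where the Benjamini-Hochberg adjusted p over all genes tested is under 0.05. SE is the standard error of a log2 fold change.

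Most cathepsins are cysteine proteases of the papain type. Exceptions are cathepsin D, an aspartic protease, and cathepsin A, a serine carboxypeptidase that also protects other lysosomal enzymes. Cathepsins are made as inactive precursors and are carried to the lysosome by mannose 6-phosphate receptors. Outside it, those of the papain type are held in check by cystatins. Macrophages and other phagocytes hold large amounts of cathepsins. In muscle they belong to the lysosomal route of protein breakdown that serves autophagy and the clearance of damaged fibres.

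Each library held between 14843778 and 29076671 reads counted on genes, and no pair of the 465 pairs of libraries held identical values. Reads ambiguous between genes numbered 118618 to 188588 per library in the 10U groups. In the Col vehicle and 0.2U groups they numbered 30587 to 57579, and in the CFA experiment 42039 to 61286. Whether this difference is technical was not tested. In the comparisons of 10U groups with vehicle it cannot be told apart from the treatment. Markers of muscle fibres (7 genes such as Acta1 and Ckm) summed to between 30473 and 163638 CPM in every library, so the labelled tissue was present throughout. Markers of salivary gland (6 genes, among them Amy1 and Smr3a) ranged from 11.0 to 281228 CPM and markers of bone (6 genes, among them Ibsp and Bglap) from 1.35 to 286 CPM, with wide differences inside groups. Among the mice treated with 10U Col, 2 stood apart from their groups. The early replicate 4 had the lowest macrophage marker sum of its group (412 CPM, against 537 to 1122 CPM) and the highest muscle fibre sum (60041 CPM, against 30473 to 36820 CPM). The late replicate 4 had a macrophage marker sum of 782 CPM where the other 3 late mice had 119 to 215 CPM. At 1d post-CFA, replicate 2 had a macrophage marker sum of 198 CPM against 351 and 547 CPM in the other 2 mice. Values without these mice are given beside the results of their groups.

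Among the 6 mice given vehicle, the 10 genes differed widely in level. Cathepsin D was the most abundant with 449 ± 164 RPKM (SD, n = 6), followed by Ctsb with 101 ± 16.4 RPKM and Ctsl with 93.8 ± 12.7 RPKM. Ctsz (45.5 ± 8.21 RPKM), Ctsk (36.6 ± 34.4 RPKM), Lgmn (27.7 ± 4.78 RPKM) and Ctsa (27.0 ± 4.25 RPKM) formed the middle of the order. Ctsc (13.9 ± 2.07 RPKM), Ctss (13.7 ± 7.56 RPKM) and Ctsh (10.7 ± 5.80 RPKM) were the lowest. Among neighbours in this order the ranges over mice were separate only between Ctsd (at least 304 RPKM) and Ctsb (at most 133 RPKM), between Ctsl (at least 74.4 RPKM) and Ctsz (at most 55.9 RPKM), and between Ctsa (at least 21.3 RPKM) and Ctsc (at most 17.0 RPKM). The other neighbours overlapped.

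Over all 31 mice, 2 of the genes spanned far wider ranges than the rest. The highest CPM of Ctss was 91.5 times the lowest and that of Ctsk 86.9 times the lowest, while Ctsh (9.72 times) and Lgmn (9.60 times) came next and Ctsa spanned only 2.37 times. The lowest raw counts behind these values were 128 for Ctss and 89 for Ctsk, so that counting error is a small part of the ranges. The 10 genes together took 0.148 to 0.197% of all counts in the Col vehicle group, 0.174 to 0.720% in the early group, 0.492 to 0.780% in the 6d group and 0.166 to 0.367% in the late group.

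**Figure D1:**
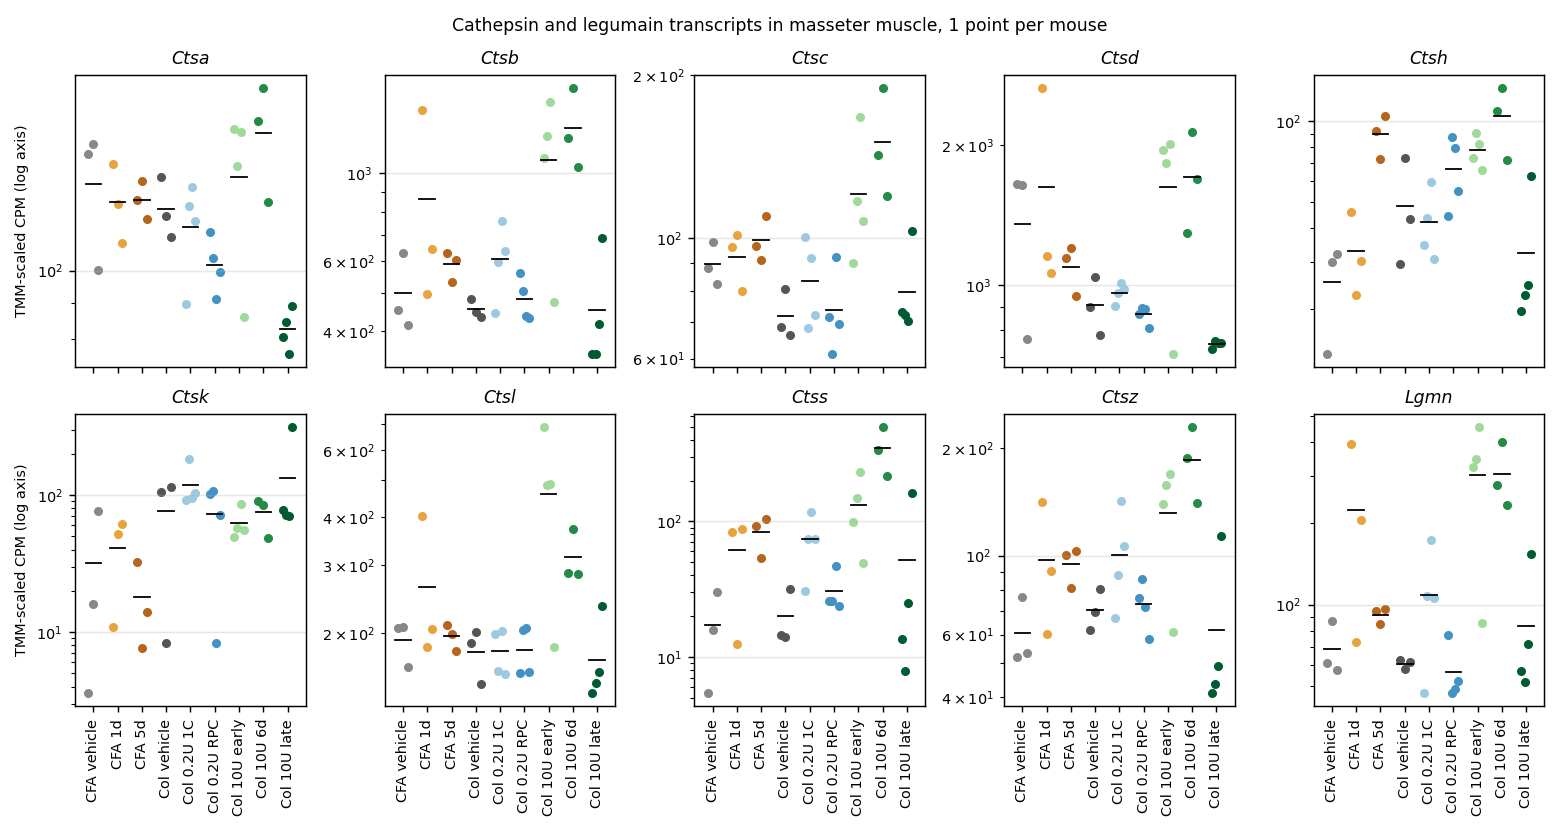
TMM-scaled CPM (log axis) of the 10 genes in each of the 31 mice, 1 panel per gene and 1 column per group. Each point is a mouse and each bar the mean of a group, and Ctss sits at 217 to 495 CPM in the 6d group above the 14.0 to 31.9 CPM of the Col vehicle group, while Ctsk is scattered within most groups.

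In the mm9 build used for the counts, Ctsk (chr3:95303208-95313284) and Ctss (chr3:95330708-95360325) lie on the same strand of chromosome 3 with 17423 bp between them, and yet their levels had different patterns (below). The other genes are Ctsa (chr2:164658373-164666532) and Ctsz (chr2:174252994-174264540) on chromosome 2, Ctsc (chr7:95426595-95459398) and Ctsd (chr7:149557053-149573943) on chromosome 7, Ctsh (chr9:89948990-89970927), Lgmn (chr12:103632294-103678023), Ctsl (chr13:64464522-64471614) and Ctsb (chr14:63741302-63764758). A same-strand gene, 6330512M04Rik, shares 4.86% of the 50-base windows of Ctsd but held only 658 counts over all libraries. Genes of the opposite strand lie over or near Ctsa, Ctsb, Ctsc, Ctsz and Lgmn, and whether the strand of reads was used in counting is not stated in the sources used here.

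Lysosomal genes are known to share a promoter element, bound by the transcription factor TFEB and its relatives of the MiT/TFE family, whose core is the palindrome CACGTG and in its longer form TCACGTGA. Its matches are shown as a description of the set, and their part in the changes was not tested. RefSeq promoter windows of mouse build GRCm38.p6 were on hand for 8 of the 10 genes (Ctsb and Ctsh had none), and the 250 bases before each start were searched on both strands. TCACGTGA, which contains CACGTG, was found in Ctsa and Ctsd, 2 of 8 genes, against 0.907% of all 27025 genes with a window. CACGTG was found in Ctsa, Ctsd, Ctsl and Lgmn, 4 of 8 genes, against 6.86% of all genes. At 6d post-Col (10U) against vehicle (below) their log2 fold changes were 0.33 for Ctsa, 0.89 for Ctsd, 0.80 for Ctsl and 2.30 for Lgmn. Ctsa and Ctsd, which hold the longer form, were not called there. Ctss, which had the largest rise, had no match to either form. The 4 stretches are printed 5′ to 3′ on the strand of the gene with the match in capitals, from chr2:164833740-164833772 (plus strand) for Ctsa, chr7:142387899-142387946 (minus strand) for Ctsd, chr13:64370731-64370770 (minus strand) for Ctsl and chr12:102439116-102439161 (minus strand) for Lgmn.
Ctsa: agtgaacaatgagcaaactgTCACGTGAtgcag
Ctsd: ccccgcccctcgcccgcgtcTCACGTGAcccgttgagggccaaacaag
Ctsl: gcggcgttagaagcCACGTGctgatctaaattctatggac
Lgmn: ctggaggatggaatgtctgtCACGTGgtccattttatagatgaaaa
The match ended 6 bases before the start in Ctsa, 92 in Ctsd, 231 in Ctsl and 44 in Lgmn, where Ctsa and Lgmn each had the match at 1 of 2 annotated starts. Ctsd held CACGTG a second time, 240 bases before its start. A second element searched was GAGGAAGT, a core recognised by the myeloid factor PU.1, which was found in Ctsc alone, 1 of 8 genes, against 2.79% of all genes. It lay in reverse complement (capitals) 144 bases before the start, at chr7:88277914-88277961 on the plus strand.
Ctsc: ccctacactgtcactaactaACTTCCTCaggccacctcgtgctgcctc
A match of letters is a description and shows no binding.

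At 6d post-Col (10U), 6 of the 10 genes were called higher than in vehicle-treated MM and none lower, where 14.0% of the 14281 genes tested were called higher. The 6 were Ctss, Lgmn, Ctsb, Ctsz, Ctsc and Ctsl, with rises from 1.74-fold to 16.8-fold. The median log2 fold change of the 10 genes was 1.07, against 0.01 over all genes. In 7 of the genes the lowest of the 3 treated mice was above the highest of the 3 vehicle-treated mice, which held for 26.0% of all genes.

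Cathepsin S, which cuts the invariant chain of MHC class II and stays active at neutral pH, had the largest rise. Its CPM was 335, 495 and 217 in the 6d mice and 14.4, 14.0 and 31.9 in the vehicle-treated mice, a log2 fold change of 4.07 ± 0.47 (SE), or 16.8-fold, with an adjusted p of 0.00292 in edgeR. The groups were far apart, and the lowest 6d mouse had several times the level of the highest vehicle-treated mouse. Legumain, which matures other cathepsins and also processes antigens, was at 277, 399 and 234 CPM against 62.5, 57.6 and 61.2 CPM, a log2 fold change of 2.30 ± 0.23 (4.92-fold, adjusted p = 0.00213). The vehicle-treated mice were close to each other for this gene, and no mouse of one group reached the other.

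The general cysteine proteases moved less. Cathepsin B, a broad endopeptidase and dipeptidyl carboxypeptidase, was at 1227, 1645 and 1037 CPM against 482, 448 and 433 CPM, a log2 fold change of 1.49 ± 0.26 (2.82-fold, adjusted p = 0.0100). Cathepsin Z, a carboxypeptidase, was at 188, 229 and 140.2 CPM against 61.8, 69.2 and 80.6 CPM (1.37 ± 0.22 on the log2 scale, 2.58-fold, adjusted p = 0.00777). For both genes all 6d mice were above all vehicle-treated mice. Cathepsin C, the dipeptidyl peptidase that activates the serine proteases of granulocytes and lymphocytes, was at 142, 189 and 119.6 CPM against 68.6, 80.7 and 66.3 CPM (1.04 ± 0.20 on the log2 scale, 2.06-fold, adjusted p = 0.0123). Cathepsin L, an endopeptidase of most cell types, was at 287, 373 and 285 CPM against 188, 201 and 147 CPM, a log2 fold change of 0.80 ± 0.20 (1.74-fold, adjusted p = 0.0270). The groups did not overlap in Ctsc or Ctsl, and Ctsl had the smallest fold of the 6.

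The remaining 4 genes were not called. Cathepsin D was at 1292, 2134 and 1688 CPM against 899.7, 1039.6 and 781 CPM, with no overlap, and its log2 fold change of 0.89 ± 0.29 had an adjusted p of 0.0548. Cathepsin H, an aminopeptidase, was at 109, 133 and 71.7 CPM against 29.4, 73.0 and 43.3 CPM (1.09 ± 0.34 on the log2 scale, adjusted p = 0.0501), and 1 vehicle-treated mouse lay among the 6d mice. DESeq2 gave both genes an adjusted p under the threshold, 0.00139 for Ctsd and 0.0118 for Ctsh, where it called 15.4% of its genes higher. Cathepsin A was at 163, 181 and 125 CPM against 135, 119 and 112 CPM (0.33 ± 0.19 on the log2 scale, adjusted p = 0.214), so its groups overlapped. Cathepsin K, the collagen-degrading protease of osteoclasts, was at 90.8, 84.6 and 48.3 CPM against 106, 8.38 and 115 CPM (-0.08 ± 0.77 on the log2 scale, adjusted p = 0.944), and the spread of the vehicle-treated mice spanned that of the 6d mice. The sign for Ctsk turned without vehicle replicate 1 or 3 or without 6d replicate 3 (range -0.63 to 0.33 over the fits without 1 mouse).

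Ctss, Lgmn, Ctsb, Ctsz and Ctsc were called in all 6 fits that left out 1 mouse, including the fit without 6d replicate 2, in which only 3.39% of genes were called higher. Ctsl was called in 1 of these fits, the one without vehicle replicate 3. Among them Ctsh was called only in the fit without vehicle replicate 2. Markers of macrophages moved with these results: 10 of 12 rose, and their summed level was 941 to 1869 CPM at 6d against 121 to 307 CPM in the vehicle group, with no marker at 0. Muscle fibre markers summed to 34050 to 57026 CPM at 6d against 92510 to 130900 CPM, and salivary gland markers to 11.0 to 33.3 CPM against 84.9 to 142872 CPM. Their part in the result was not tested.

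**Figure D2:**
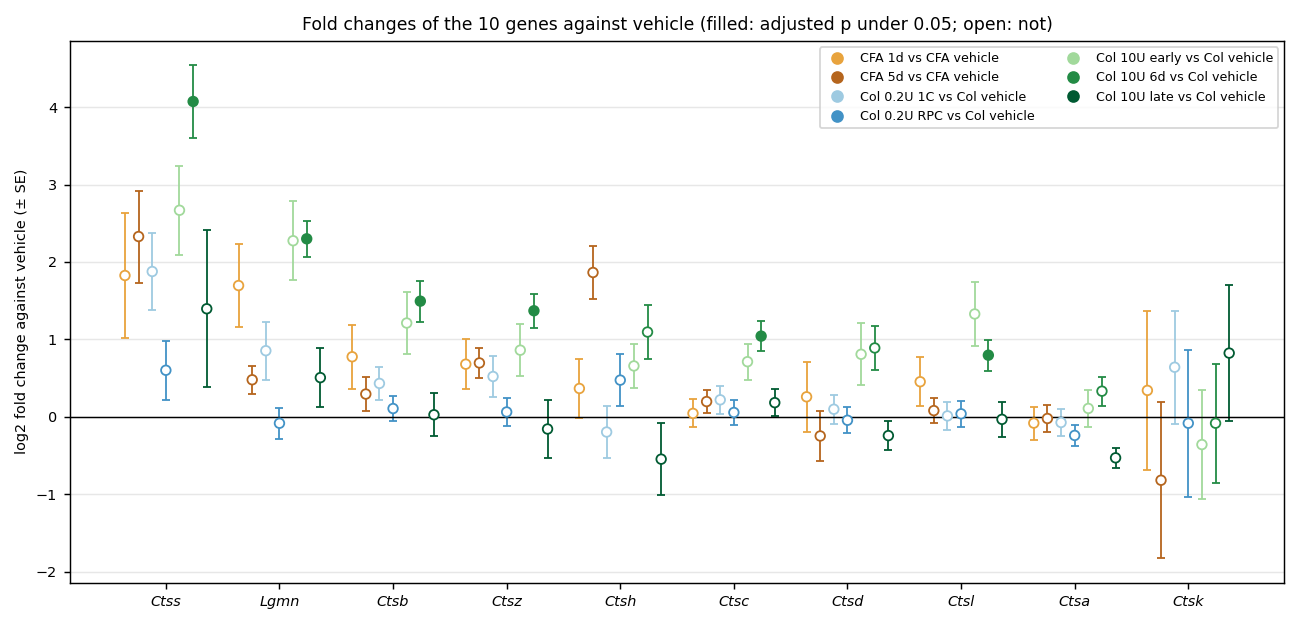
Log2 fold change (± SE) of the 10 genes in the 7 comparisons with vehicle, filled where the adjusted p was under 0.05. The filled points are the 6 genes called at 6d, from 0.80 for Ctsl to 4.07 for Ctss, and no other comparison has one.

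In the early group post-Col (10U), edgeR called none of the 10 genes against vehicle, where 1.14% of 14373 genes were called higher. An unadjusted p under 0.05 was reached by 6 of them (33.3% of all genes), and DESeq2 called 4 higher, Ctsb, Ctsl, Ctss and Lgmn, where it called 10.9% of its genes higher. The median log2 fold change was 0.83, against 0.02 over all genes. Ctss was at 99.4, 149, 232 and 49.7 CPM, where the vehicle-treated mice had 14.0 to 31.9 CPM (2.67 ± 0.58 on the log2 scale, adjusted p = 0.0532). Lgmn was at 322, 345, 453 and 85.2 CPM against 57.6 to 62.5 CPM (2.27 ± 0.51, adjusted p = 0.0540). In both genes the early replicate 4 was the nearest to the vehicle group, and the groups still did not overlap. Ctsl was at 687, 486, 488 and 184 CPM against 147 to 201 CPM (1.33 ± 0.41 on the log2 scale, adjusted p = 0.0794), so that only replicate 4 lay among the vehicle-treated mice. Ctsb was at 1092, 1245, 1517 and 473 CPM against 433 to 482 CPM (1.21 ± 0.40, adjusted p = 0.0880), with the same mouse inside the vehicle range. Ctsz (139.7, 158, 169.7 and 60.9 CPM, 0.86 ± 0.34 on the log2 scale) and Ctsd (1953, 1835, 2012 and 713 CPM, 0.81 ± 0.40) had this mouse below the lowest vehicle-treated mouse.

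Without the early replicate 4, 7 of the 10 genes were called higher, where 17.9% of genes were. They were Lgmn (2.58 on the log2 scale, adjusted p = 0.000478), Ctsl (1.59, adjusted p = 0.00223), Ctsb (1.46, adjusted p = 0.00290), Ctsz (1.09, adjusted p = 0.00336), Ctss (2.94, adjusted p = 0.00400), Ctsd (1.05, adjusted p = 0.00740) and Ctsc (0.76, adjusted p = 0.0429). Leaving out vehicle replicate 3 left 1 call, Ctss, and leaving out any other mouse left none, where the shares of all genes called are not given here. Ctsc was at 89.9, 117, 167 and 108 CPM against 66.3 to 80.7 CPM and Ctsh at 72.9, 90.6, 82.6 and 65.9 CPM against 29.4 to 73.0 CPM. Ctsc did not overlap with its vehicle group (3 of the genes did not, against 13.4% of all genes higher) while Ctsh did. Ctsa (158, 141, 157 and 86.0 CPM, 0.11 ± 0.24 on the log2 scale) and Ctsk (49.4, 57.3, 86.7 and 55.4 CPM) overlapped with the vehicle-treated mice.

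Between the early and the 6d group, no gene was called by edgeR, where 8.73% of 14513 genes were. An unadjusted p under 0.05 was reached by Ctss alone (26.6% of all genes), which was also the 1 gene that DESeq2 called (8.15% of its genes higher). Ctss was 2.66-fold higher at 6d (1.41 ± 0.50 on the log2 scale, adjusted p = 0.119, and 0.0341 by DESeq2), and edgeR called it without the early replicate 3. In the opposite direction, Ctsl had its highest group mean in the early group, 461 ± 207 CPM (SD, n = 4), against 315 ± 50.1 CPM at 6d (n = 3). Its log2 fold change of -0.53 ± 0.40 was within the spread of the mice (adjusted p = 0.452), and without the early replicate 4 it was -0.79 with an adjusted p of 0.0212. Shares of all genes called in this comparison without the early replicate 3 or 4 are not given here. Lgmn was at almost the same mean on both days, 301 ± 155 CPM and 303 ± 85.6 CPM. The early mean includes replicate 4 at 85.2 CPM, where the other early mice had 322 to 453 CPM.

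In the late group post-Col (10U), 8 of the 10 genes were called lower than at 6d and none higher, where 13.0% of 14344 genes were called lower. The median log2 fold change was -1.34, against 0.00 over all genes. This comparison shares the 6d mice with the one against vehicle, so the 2 are not independent. Lgmn was at 56.9, 51.7, 71.8 and 154 CPM in the late group (-1.84 ± 0.40 on the log2 scale, adjusted p = 0.0196) and Ctsh at 19.7, 22.7, 24.5 and 62.3 CPM (-1.68 ± 0.41, adjusted p = 0.0272). Ctsz was at 41.1, 43.6, 48.9 and 114 CPM (-1.57 ± 0.37, adjusted p = 0.0247) and Ctsb at 351, 351, 417 and 687 CPM (-1.51 ± 0.30, adjusted p = 0.0168). In each of these 4 genes the late replicate 4 was the highest late mouse, and it was still below every 6d mouse. Ctsd was even among the late mice, at 729, 761, 751 and 752 CPM (-1.17 ± 0.22, adjusted p = 0.0157), and so was Ctsa, at 80.5, 84.5, 76.4 and 89.3 CPM (-0.90 ± 0.14, adjusted p = 0.0112). Ctsc (73.2, 72.0, 70.3 and 103 CPM, -0.90 ± 0.20, adjusted p = 0.0202) and Ctsl (139.6, 148, 158 and 236 CPM, -0.87 ± 0.21, adjusted p = 0.0272) completed the 8.

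Ctss was not called, with 13.5, 7.83, 24.9 and 161 CPM in the late mice and a log2 fold change of -2.74 ± 0.98 (adjusted p = 0.0715, and 0.0464 by DESeq2). Its late replicate 4 stood far from the other 3. Without that mouse the log2 fold change of Ctss was -4.49 (adjusted p = 0.000479) and 9 genes were called lower, where 29.1% of all genes were. The calls also rested on other mice. Leaving out the late replicate 1, 2 or 3 kept 1 call each, Ctsa. Leaving out 6d replicate 2 kept none, when 0.934% of all genes were called lower. Leaving out 6d replicate 1 kept 3 (Ctsa, Ctsb and Ctsd) and 6d replicate 3 kept 7, without Ctsl. Shares of all genes called without the late replicate 1, 2 or 3 or 6d replicate 1 or 3 are not given here. The counts in those fits describe the dependence on single mice and are not results about the members. The 9 genes other than Ctsk kept a negative log2 fold change in each of these 7 fits, and in all 9 no late mouse reached the lowest 6d mouse, which held for 18.7% of all genes. Ctsk was at 77.6, 71.1, 70.1 and 312 CPM. Macrophage markers summed to 119 to 782 CPM in the late group against 941 to 1869 CPM at 6d (4 of 12 called lower), and muscle fibre markers to 46860 to 111195 CPM against 34050 to 57026 CPM. Their part in the result was not tested. Of the 8 genes called lower, 5 also had a fold change over 2 with RPKM over 1 (5.09% of all genes did).

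Against vehicle, none of the 10 genes was called in the late group by edgeR, where 1.23% of 14176 genes were called in either direction. Of the 10, Ctsa alone had an unadjusted p under 0.05 (17.4% of all genes) and was the only one called by DESeq2 (2.37% of its genes lower). All 4 late mice were below the 112 to 135 CPM of the vehicle-treated mice (-0.53 ± 0.13 on the log2 scale, adjusted p = 0.116, and 0.00312 by DESeq2). Ctsd was the other gene whose late mice were all below the vehicle-treated mice (2 of 10 genes, against 7.82% of all genes). The direction of Ctss depended on 1 mouse: the log2 fold change was 1.40 ± 1.01 with the late replicate 4 and -0.37 without it.

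At 1d post-CFA, none of the 10 genes was called (0% of 13944 genes were), and the lowest adjusted p was 0.924. An unadjusted p under 0.05 was reached by Lgmn alone (4.22% of all genes), and DESeq2 called none. Lgmn was at 391, 72.7 and 206 CPM against 61.0, 86.6 and 57.4 CPM in the CFA vehicle group (1.70 ± 0.54 on the log2 scale) and Ctss at 83.9, 12.4 and 88.1 CPM against 5.41, 15.7 and 30.0 CPM (1.83 ± 0.81). Replicate 2 lay within the vehicle range in both genes and the other 2 mice lay above it. Ctsb was at 1442, 496 and 645 CPM against 453, 629 and 415 CPM (0.78 ± 0.42), Ctsz at 142, 60.3 and 90.4 CPM against 52.0, 76.3 and 53.4 CPM (0.68 ± 0.32) and Ctsl at 404, 184 and 205 CPM against 206, 207 and 163 CPM (0.45 ± 0.32). Without replicate 2 the log2 fold change was 2.11 for Lgmn (adjusted p = 0.102) and 2.33 for Ctss (adjusted p = 0.241), none of the 10 genes was called and 0.138% of all genes were called higher. Without replicate 1 that of Lgmn was 1.06. Replicate 1 held the highest value of its group in Ctsa, Ctsb, Ctsd, Ctsh, Ctsl, Ctsz and Lgmn. Over the 10 genes the log2 fold changes lay between -0.08 and 1.83, with a median of 0.41 (-0.01 over all genes).

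At 5d post-CFA, edgeR again called none, where 1.11% of 14026 genes were. An unadjusted p under 0.05 was reached by 4 of the genes (14.0% of all genes), and DESeq2 called Ctsh and Ctss higher (4.79% of its genes). Ctsh was at 91.8, 72.2 and 104 CPM against 13.7, 30.1 and 32.2 CPM (1.86 ± 0.34 on the log2 scale, 3.64-fold, adjusted p = 0.0586, and 2.23e-05 by DESeq2). Ctss was at 92.9, 54.0 and 105 CPM against 5.41, 15.7 and 30.0 CPM (2.33 ± 0.59, 5.02-fold, adjusted p = 0.124, and 0.000897 by DESeq2). Ctsz was at 100.3, 80.9 and 103 CPM against 52.0, 76.3 and 53.4 CPM (0.70 ± 0.19, adjusted p = 0.151). These 3 genes had groups that did not overlap, against 12.8% of all genes higher. The median log2 fold change of the 10 genes was 0.24, with a range of -0.82 to 2.33. Lgmn (94.6, 84.9 and 96.0 CPM, 0.48 ± 0.18, adjusted p = 0.289) and Ctsb (631, 533 and 606 CPM, 0.29 ± 0.22) overlapped with vehicle. Without CFA vehicle replicate 3, Ctsh (2.11, adjusted p = 0.00253) and Ctss (3.07, adjusted p = 0.00211) were called, where 11.8% of genes were called higher. All 3 mice at 5d held 127898 to 160096 CPM of salivary gland markers against 103 to 13389 CPM in the CFA vehicle group.

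After 0.2U Col, none of the 10 genes was called in the 1C group (0% of 14493 genes) or in the RPC group (0% of 14269 genes). In the 1C group an unadjusted p under 0.05 was reached by Ctss alone (12.6% of all genes), which DESeq2 also called (2.43% of its genes higher). Ctss was at 30.4, 73.6, 117 and 73.8 CPM against 14.4, 14.0 and 31.9 CPM (1.88 ± 0.49 on the log2 scale, 3.67-fold, adjusted p = 0.266, and 0.00417 by DESeq2). Lgmn was at 47.2, 107, 174 and 106 CPM (0.85 ± 0.38, adjusted p = 0.402), Ctsz at 66.6, 88.1, 142 and 106 CPM (0.52 ± 0.26) and Ctsb at 443, 596, 758 and 637 CPM (0.43 ± 0.22). In these 4 genes replicate 1 lay within the vehicle range or below it, and the other 3 mice were above the vehicle-treated mice. In the RPC group no gene reached an unadjusted p under 0.05 (13.5% of all genes did) and DESeq2 called none. Ctss was at 25.9, 25.9, 47.0 and 23.6 CPM (0.60 ± 0.38) and Ctsh at 44.4, 87.2, 79.3 and 55.0 CPM (0.47 ± 0.34), both overlapping with vehicle. The median log2 fold change of the 10 genes was 0.32 in the 1C group (range -0.20 to 1.88) and 0.05 in the RPC group (range -0.24 to 0.60).

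The vehicle groups of the 2 experiments did not differ in any of the 10 genes by edgeR or DESeq2, and none had an unadjusted p under 0.05 (2.32% of 14070 genes had one and 0.0426% were called). Ctsh had the lowest unadjusted p, with 25.3 ± 10.1 CPM in the CFA and 48.6 ± 22.2 CPM in the Col vehicle group (n = 3 each, -0.96 ± 0.42 on the log2 scale). Ctsc was 1 gene whose vehicle groups did not overlap, against 2.63% of all genes higher in the CFA group.

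Whether the change differed between CFA and 10U Col groups was tested as an interaction, each effect against its own vehicle. The agents, the experiments and, by the labels, the days differ together in these tests and cannot be told apart. Between the effects at 1d post-CFA and in the early group post-Col (10U) none of the 10 genes differed (0.0946% of 14794 genes did), none had an unadjusted p under 0.05 (6.83% of all genes did) and DESeq2 called none. The closest was Ctsc, with a difference of -0.65 ± 0.30 on the log2 scale (adjusted p = 0.718). Between 5d post-CFA and 6d post-Col (10U), 3 genes had a smaller effect after CFA, where 4.34% of 14892 genes were called lower. Legumain differed most, by -1.81 ± 0.29 (adjusted p = 0.00586), since its group mean was 303 CPM at 6d post-Col and 91.9 CPM at 5d post-CFA, with vehicle means of 60.4 and 68.4 CPM. Ctsb differed by -1.19 ± 0.31 (adjusted p = 0.0328) and Ctsc by -0.84 ± 0.24 (adjusted p = 0.0449). DESeq2 called 5 of the genes lower, these 3 with Ctsd and Ctsl (7.88% of its genes).

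The difference of Lgmn was called in each of 12 fits without 1 mouse. That of Ctsb was lost without CFA 5d replicate 2 or 3, CFA vehicle replicate 2, Col 6d replicate 1 or 2, or Col vehicle replicate 2. That of Ctsc was lost without CFA 5d replicate 1 or 2, CFA vehicle replicate 2, Col 6d replicate 1 or 2, or Col vehicle replicate 1 or 3. Shares of all genes called in these fits are not given here. Ctsd (-1.12 ± 0.42, adjusted p = 0.102), Ctss (-1.75 ± 0.80, adjusted p = 0.173), Ctsl (-0.70 ± 0.24) and Ctsz (-0.67 ± 0.30) also had smaller effects after CFA but were not called. Ctsh was the 1 gene with the larger effect after CFA (0.78 ± 0.54, adjusted p = 0.359).

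Levels of Ctsk and Ctsh also went with markers of neighbouring tissues. Ctsk was under 35 CPM (a limit set after the values were seen) in 8 mice of 5 groups, and these had bone marker sums of 1.35 to 14.7 CPM. In 20 other mice Ctsk was at 49.4 to 312 CPM with bone sums of 33.5 to 286 CPM. The 6d mice were the exception, with Ctsk at 48.3 to 90.8 CPM and bone sums of 4.24 to 32.2 CPM. Within the Col vehicle group, replicates 1 and 3 had 106 and 115 CPM of Ctsk and bone sums of 98.5 and 146 CPM, while replicate 2 had 8.38 CPM and a bone sum of 13.4 CPM. This mouse was also low in fibroblast markers, with a sum of 1414 CPM against 8592 and 6211 CPM. At 6d the fibroblast sums were 10941 to 18387 CPM. Fibroblast sums did not separate all mice: CFA 5d replicate 1 had 5340 CPM with Ctsk at 32.5 CPM, and late replicate 1 had 3685 CPM with Ctsk at 77.6 CPM.

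Ctsh was compared with the salivary gland markers in the same way. In the 10 mice with a salivary sum over 60000 CPM (also set after the values were seen) Ctsh was at 55.0 to 104 CPM. In 17 other mice outside the early and 6d groups it was at 13.7 to 62.3 CPM (median 30.6 CPM). The vehicle-treated mouse with the highest salivary sum, 142872 CPM, had 73.0 CPM of Ctsh where the other 5 vehicle-treated mice had 13.7 to 43.3 CPM. At 6d Ctsh was at 71.7 to 133 CPM with salivary sums of only 11.0 to 33.3 CPM, and the early replicate 3 had 82.6 CPM with a salivary sum of 26.3 CPM. The part of these tissues and of fibroblasts in the changes of Ctsk and Ctsh was not tested.

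**Figure D3:**
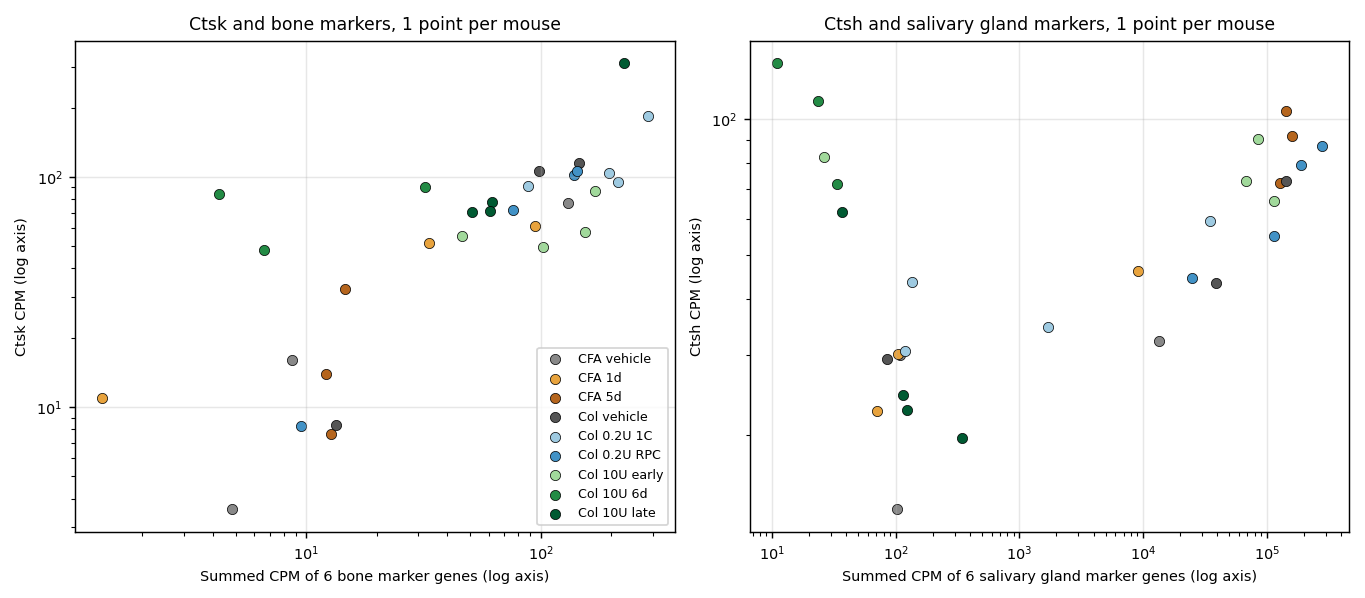
CPM of Ctsk against the summed CPM of 6 bone markers (left) and of Ctsh against that of 6 salivary gland markers (right), log axes, 1 point per mouse and 1 colour per group. The 3 mice at 6d combine low marker sums (4.24 to 32.2 CPM of bone and 11.0 to 33.3 CPM of salivary gland markers) with Ctsk at 48.3 to 90.8 CPM and Ctsh at 71.7 to 133 CPM.

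Ctss was also set against the 12 macrophage markers, which are present in all libraries. Its CPM divided by their sum was 0.0655 to 0.108 in the CFA and 0.0624 to 0.116 in the Col vehicle group. At 6d post-Col (10U) the ratio was 0.230 to 0.265 and at 5d post-CFA 0.213 to 0.224, and it was 0.133 to 0.275 in the 1C group and 0.121 to 0.209 in the early group. In these 4 groups every mouse was above every vehicle-treated mouse. The ratio overlapped with vehicle at 1d post-CFA (0.0624 to 0.251), in the RPC group (0.0806 to 0.182) and in the late group (0.0656 to 0.207). The ratio shows unequal change and not which of the genes changed per cell.

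Lgmn and Ctsb did not have this pattern. The ratio of Lgmn to the macrophage sum was 0.213 to 0.248 at 6d, inside the 0.199 to 0.476 of the Col vehicle group. It was 0.207 to 0.599 in the early 10U group and 0.367 to 0.716 at 1d post-CFA, which overlapped with the 0.206 to 0.739 of the CFA vehicle group. The ratio of Ctsb at 6d was below the vehicle range, with 0.880 to 1.10 against 1.41 to 3.70.

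**Figure D4:**
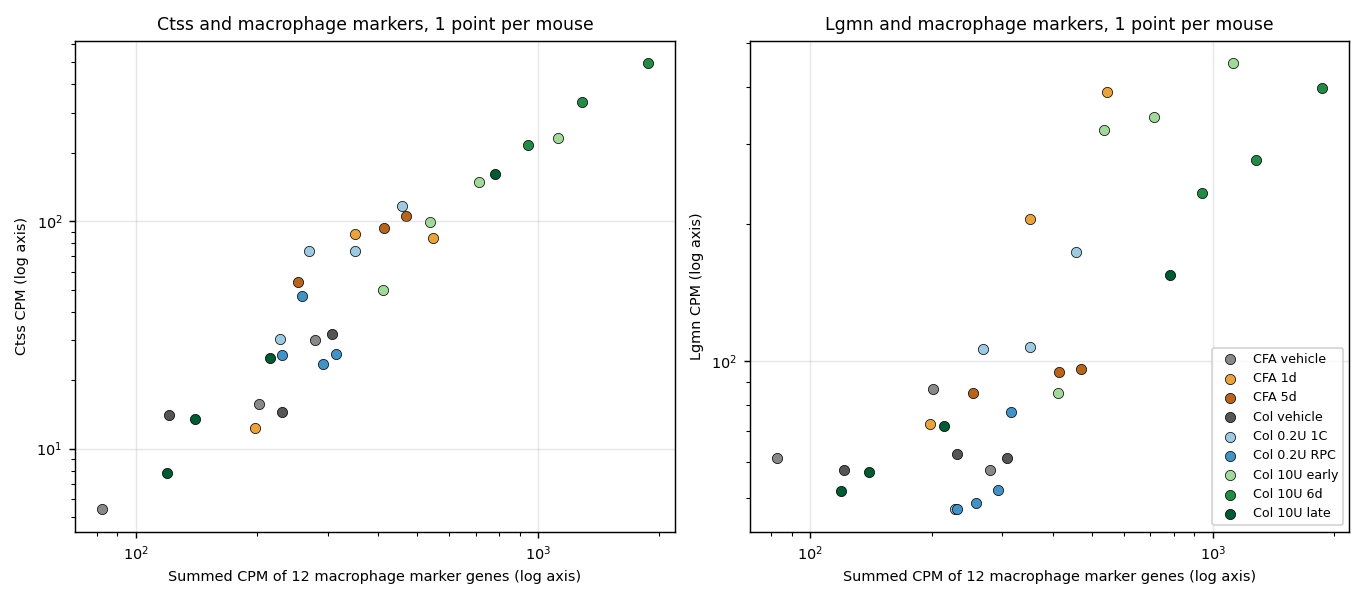
CPM of Ctss (left) and Lgmn (right) against the summed CPM of 12 macrophage markers, log axes, 1 point per mouse and 1 colour per group. The 6d mice are at 941 to 1869 CPM of markers, far right in both panels, with Ctss at 217 to 495 CPM and Lgmn at 234 to 399 CPM.

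The other genes of the lysosomal pathway were counted in lists at 6d post-Col (10U) against vehicle, beside the 14.0% of all genes called higher and 13.3% lower. Of the other cathepsins 3 of 13 had enough reads, Ctsf, Ctso and Ctsw, and none was called. Of 33 lysosomal hydrolases, enzymes that break down lipids, sugars and proteins, 14 rose, 1 fell and 18 were not called. The largest rises were those of Lipa, the acid lipase (1.92 ± 0.23 on the log2 scale, adjusted p = 0.00318), and of Galns, a sulfatase (1.72 ± 0.27, adjusted p = 0.00722). Gusb, the beta-glucuronidase (1.32 ± 0.23), and Hexa, a subunit of beta-hexosaminidase (1.22 ± 0.23), followed. Smpd1, the acid sphingomyelinase, fell by 0.92 on the log2 scale (SE 0.22, adjusted p = 0.0218). Without 6d replicate 2, 5 hydrolases were called higher and none lower (3.39% of all genes higher), and without Col vehicle replicate 2, 9 were higher and 2 lower (10.7% of all genes higher).

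Of 17 genes of the lysosomal membrane and proton pump, 5 rose and 1 fell. The rises were those of Cd68 (3.38 ± 0.67, adjusted p = 0.0138) and Laptm5 (2.09 ± 0.51, adjusted p = 0.0248), both of which are abundant in macrophages, of Cd63 (1.25 ± 0.23) and Lamp2 (0.67 ± 0.17), general membrane proteins, and of the pump subunit Atp6v1a. The calcium channel Mcoln1 fell by 0.46 (SE 0.14, adjusted p = 0.0482). Without 6d replicate 2, 1 gene of this list was called higher and none lower, and without Col vehicle replicate 2, 3 higher and none lower. Of 6 genes of enzyme sorting, Igf2r, the large mannose 6-phosphate receptor, rose (0.67 ± 0.20) and Gnptg, a subunit of the enzyme that adds the sorting tag, fell by 1.10 (SE 0.26). Of 4 MiT/TFE factors, Tfeb (listed under its older symbol Tcfeb) fell, from 146 ± 47.7 CPM to 44.0 ± 7.08 CPM (-1.74 ± 0.27, adjusted p = 0.00639), and the other 3 were not called. Tfeb was called lower without 6d replicate 2 as well, while none of the sorting genes was called then.

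Among partners of the cathepsins in antigen processing, 7 of 8 rose. They were Unc93b1 (1.88 ± 0.25, adjusted p = 0.00433), which brings nucleic acid sensing receptors to the endosomes where cathepsins cleave them, the thiol reductase Ifi30 (1.59 ± 0.24, adjusted p = 0.00623), H2-Ab1 (1.57 ± 0.22), H2-DMb1 (1.28 ± 0.27), H2-Aa, H2-Eb1 and Cd74, the invariant chain that cathepsin S cuts. Without 6d replicate 2, 5 of the 8 were called. Of 4 cystatins and stefins with enough reads, Cst6 (2.37 ± 0.46, adjusted p = 0.0129) and Cstb (1.15 ± 0.30, adjusted p = 0.0307) rose and Cst3 and Cst7 were not called. Neither was called without 6d replicate 2. Of 5 proteases that cathepsin C activates, the granzyme Gzmb rose (2.56 ± 0.70), while the neutrophil protease Prtn3 (-4.73 ± 1.42, adjusted p = 0.0442) and the mast cell protease Mcpt4 (-1.63 ± 0.50) fell. None of these 5 was called without 6d replicate 2. Gzmb and Prtn3 were low in 1 of the groups each, with means of 0.141 CPM of Gzmb in vehicle-treated mice and 0.392 CPM of Prtn3 at 6d. Prtn3 was scattered in the vehicle-treated mice (0.133 to 24.8 CPM) and overlapped with the 6d mice (0.207 to 0.753 CPM).

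From 6d to the late group, 13.0% of all genes were called lower, and the share called higher is not given here. Of the lists, 14 of the 33 hydrolases fell and 2 rose, and 4 of the 17 membrane and pump genes fell and 1 rose. Of the antigen-processing partners 2 of 8 fell, of the inhibitors 2 of 4 fell, of the sorting genes 2 of 6 fell and 1 rose, of the MiT/TFE factors 1 fell and 1 rose, and of the proteases activated by cathepsin C 1 of 5 fell. Of 4 other cathepsins tested 1 rose. The lists shorter than that of the hydrolases hold too few genes to be set apart from the share over all genes. Without the late replicate 4, 25 hydrolases, 8 membrane and pump genes and all 8 antigen-processing partners were called lower (29.1% of all genes), and without 6d replicate 2 no gene of these lists was called. In the comparisons of the CFA, 0.2U, early and late groups with vehicle, edgeR called no gene of these lists. Without the early replicate 4, 7 of the 33 hydrolases were called higher and 3 lower in the early group, beside 17.9% and 18.4% of all genes.

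**Figure D5:**
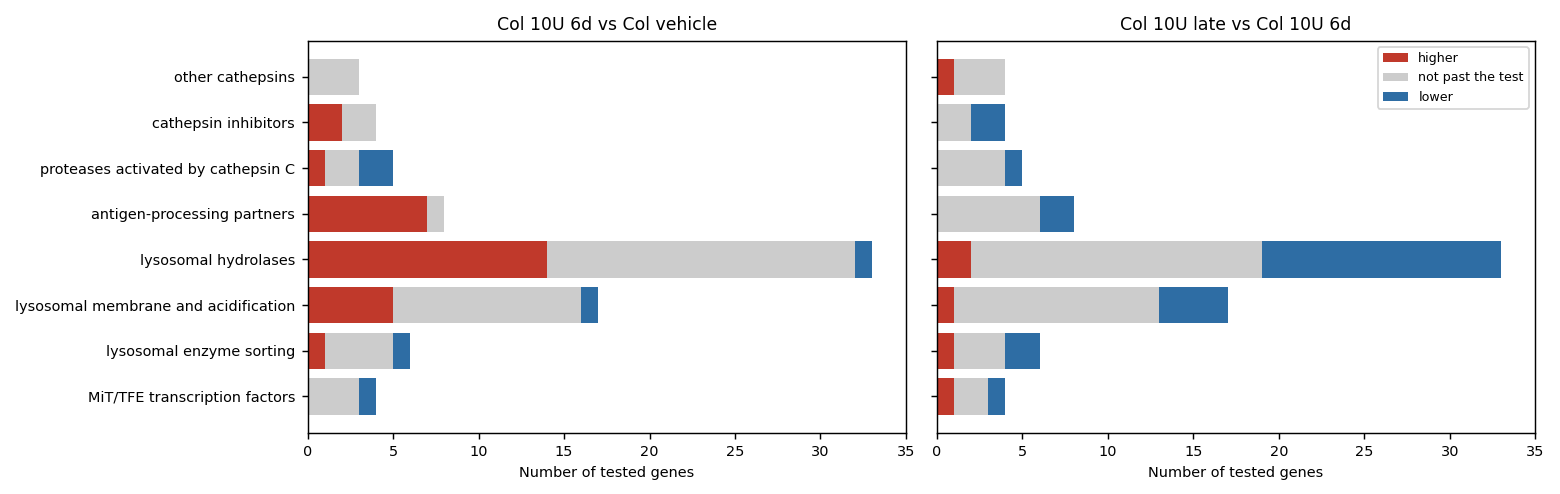
Number of tested genes in each of 8 pathway lists called higher (red), lower (blue) or not past the test (grey), for 6d post-Col (10U) against vehicle (left) and for the late group against 6d (right). The hydrolases have 14 of 33 higher and 1 lower on the left, where 14.0% of all genes were called higher and 13.3% lower. On the right they have 2 higher and 14 lower, where 13.0% of all genes were called lower.

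Genes with the most similar pattern were found by Pearson r over the 9 group means of log2 CPM among 13500 genes, a description without a test in which all points share libraries and the 6d group weighs heavily. Ctss was most like C3ar1 (r = 0.994), the receptor of complement C3a, Mpeg1 (0.989), a pore-forming protein of macrophages, and Tifab (0.987). Ctsz was most like Laptm5 (0.988), Tlr13 (0.985) and Cyba (0.984), a subunit of the phagocyte NADPH oxidase. Lgmn and Ctsb shared AB124611 as their nearest gene (0.984 with each), and Lgmn was next to Anxa4 (0.984) and Ifitm2 (0.980) and Ctsb to 1500011B03Rik (0.983) and Tnfaip8l2 (0.982). Ctsk was most like Clec11a (0.976), Sfrp4 (0.969) and Col11a1 (0.965), the last a cartilage and bone collagen.

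The nearest genes were Lin37 (0.988) for Ctsc, Gar1 (0.987) for Ctsl, Sap30bp (0.979) for Ctsa, Timm10 (0.975) for Ctsd and Naip2 (0.972) for Ctsh. Within the set, Ctsb and Lgmn (0.969), Ctss and Ctsz (0.961) and Ctsb and Ctsz (0.946) were the most alike. Ctsk stood apart from the other 9 genes, with r between -0.371 and 0.256, among them 0.256 with its chromosomal neighbour Ctss. In the order of group means the 6d group was highest for 8 of the 10 genes, the exceptions being Ctsl (early group) and Ctsk (late group). In all 8 the values of the 6d mice overlapped with those of the group next in order.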

How the data were processed

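RNA of masseter muscle was sequenced in 31 mice (TruSeq stranded poly(A) libraries, single reads of 50 bases). Per the submitters' processing notes and methods, reads were made with bcl2fastq, aligned to mm9 with TopHat2 and counted per gene with HTSeq. The authors deposited raw read counts per gene and library. Versions and the strand setting of the counting are not given in the sources used here. The 5 lines of unassigned reads per file were left out, of which reads on no gene were 6.70 to 12.2% in the CFA and 10.7 to 22.6% in the Col experiment.

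The members and lists were chosen with earlier results of these data known. All 10 members were named in every comparison, with up to 4 genes per list of largest change at 6d among those called. These genes were named by that rule, and the remaining called partners of antigen processing and uncalled genes were named after their values were seen. Counts were tested with edgeR 4.0.16 in R 4.3.3 (TMM, quasi-likelihood, a minimum of 10 counts in 3 or more libraries per gene, only the groups compared), with Benjamini-Hochberg adjustment over all genes tested and a threshold of 0.05. Interactions were fitted in 1 model of 4 groups. RPKM used mm9 exon lengths of GENCODE M1 from the reference, matched by symbol for 21627 genes, by synonym for 58 and set to the median of 2840 bp for 924. Alternatives were DESeq2 1.42.0, its size factors in edgeR, no filter, a fold change over 2 with RPKM over 1 asked beside the adjusted p, both vehicle groups, 1 fit of all libraries, the replicate number as a block, and each mouse left out. Tests were tried on simulated counts.

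Libraries held 14843778 to 29076671 counts. Each library is 1 mouse, and the source of the replicate numbers is not stated. Deviations of same-numbered mice had an r over 0.1 in every pair only between CFA 1d and vehicle (mean r = 0.338) and between the vehicle groups (mean r = 0.332). The block gave 0 calls there, as did the fit without it. Summaries and figures used Python 3.11.15, pandas 2.3.3 and numpy 2.4.6.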

Additional observations from a re-analysis of the deposited data

Results flagged for a closer look

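Of 40 groups of 4 mice and 1 gene tested for a mouse far from its group by Dixon's test, 9 had one, where chance gives about 1 in 20. The late replicate 4 accounted for 5 of them. It had 103 CPM of Ctsc, 62.3 CPM of Ctsh, 312 CPM of Ctsk, 161 CPM of Ctss and 114 CPM of Ctsz, in each case above the other 3 late mice, with a macrophage marker sum of 782 CPM and a muscle fibre sum of 46860 CPM against 88894 to 111195 CPM in the others. The early replicate 4 had 713 CPM of Ctsd, below the other 3 early mice. After 0.2U Col, replicate 2 of the 1C group had 184 CPM of Ctsk, replicate 3 of the RPC group 47.0 CPM of Ctss and replicate 1 of the RPC group 77.2 CPM of Lgmn, all above their groups. The part of other tissues and cells in these values was not tested.

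The effect at 5d post-CFA differed from that at 6d post-Col (10U) in an interaction test by edgeR for 3 genes, Lgmn (-1.81 on the log2 scale), Ctsb (-1.19) and Ctsc (-0.84), each with the smaller effect after CFA. The agents, the days and the experiments differ together in this comparison and cannot be told apart.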

How the results depend on the processing

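The 6 calls at 6d post-Col (10U) against vehicle moved to between 5 and 6 when 1 mouse was left out. DESeq2 called more genes than edgeR in several comparisons, 4 in the early group, 2 at 5d post-CFA, 1 in the 1C group, 1 in the late group against vehicle, 1 between the early and 6d groups, 8 at 6d against vehicle, 9 from 6d to late, and 5 in the interaction of 5d post-CFA and 6d post-Col. In the early group the counts were 7 with the replicate number as a block, 5 in 1 fit over all libraries and 7 with both vehicle groups, and with both vehicle groups the late group had 1. Shares of all genes called are not given here for these settings, nor for DESeq2 from 6d to late. Such counts describe the dependence on the processing and are not results about the members. With a fold change over 2 and RPKM over 1 asked beside the adjusted p, 5 genes were called from 6d to late. The interaction had 1 call with the replicate block (Lgmn) and 1 in 1 fit over all libraries (Ctsc). Outside the comparisons named in the methods not every same-numbered pair had an r over 0.1. With 3 pairs per comparison, whether the numbers pair the mice cannot be decided.

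With 1 mouse left out the counts ranged from 0 to 9 from 6d to late, 0 to 7 in the early group, 0 to 2 at 5d post-CFA, 0 to 1 between the early and 6d groups, and 1 to 4 in the interaction. Shares of all genes called are given for only some of the fits without 1 mouse. The log2 fold change of Ctsk at 6d turned to 0.41 with the replicate block and 0.43 with both vehicle groups, and lay between -0.63 and 0.33 with 1 mouse left out. That of Ctss in the late group turned to -0.40 with the block and lay between -0.37 and 1.94 with 1 mouse left out. The cause was not tested in any of these.

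Alternative values were tallied for 60 of the log2 fold changes of the members and not for all of them. Of the values tallied, 667 kept direction and side of the threshold, 55 passed it newly, 59 no longer passed it and 7 reversed. Signs also turned outside this tally, as for Ctsk at 5d post-CFA (-1.56 to 0.97 with 1 mouse left out). The members had at least 89 counts in every library, and groups held 3 to 4 mice. Cst7, Gzmb and Prtn3 lay near 1 CPM or below in some groups and are limited by depth.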

Other observations

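Markers of other cell types were counted at 6d post-Col (10U) against vehicle by the same edgeR test with Benjamini-Hochberg adjustment. Over all genes, 14.0% were called higher and 13.3% lower. Lists with 1 or 2 calls hold too few genes to be set apart from these shares. Of 5 dendritic cell markers 3 rose (Itgax, Xcr1 and Flt3), and of 6 fibroblast markers Col3a1 rose, with a summed level of 10941 to 18387 CPM against 1414 to 8592 CPM. Of 5 neutrophil markers 2 fell (S100a8 and S100a9), with a sum of 12.8 to 17.1 CPM at 6d against 6.65 to 737 CPM in vehicle-treated mice. Of 7 muscle fibre markers Myh4 and Ckm fell, of 5 osteoclast markers Calcr fell, of 4 adipocyte markers Lep fell, and of 4 mast cell markers 2 fell. Bone markers had 3 of 6 lower and salivary gland markers 3 of 3 with enough reads lower. The 1 tested marker of B and T cells was not called. Ctsk, the osteoclast protease, was not called by edgeR in any comparison with vehicle.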
